A study of Mus musculus with 8 samples.

Results

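The genes of histone lysine methylation enzymes other than those acting on H4K20 were examined for R-loop signal in mouse muscle stem cells (MuSCs) with and without Kmt5b. A list of 39 genes was used, 25 of enzymes that add methyl groups to histone lysines (writers) or of their close relatives and 14 of enzymes that remove them or of their relatives (erasers). Peaks were taken by the gene symbol written in the peak table, on autosomes. This gave 157 of 28265 union peaks, in 37 of the 39 genes, with 107 peaks in 23 writer genes and 50 in 14 eraser genes. Ezh1 and Prdm16 had no row in the table used here.

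Methylation of histone lysines marks chromatin states. H3K4 methylation lies at active promoters and enhancers, H3K36 and H3K79 methylation along transcribed gene bodies, and H3K9 and H3K27 methylation in silent chromatin. Writers carry mostly a SET domain, with Dot1l as an exception, and erasers are flavin-dependent amine oxidases (Kdm1a, Kdm1b) or Jumonji-domain dioxygenases. In muscle stem cells these enzymes are known for holding back or releasing differentiation genes. KMT5B, the enzyme inactivated here, converts H4K20me1 to H4K20me2.

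DNA-RNA immunoprecipitation sequencing (DRIP-seq) uses the S9.6 antibody to pull down RNA:DNA hybrids, the paired part of an R-loop. Ctrl mice (Pax7CreERT/Suv4-20h1WT) and Kmt5b sKO mice (Pax7CreERT/Suv4-20h1KO) both carried the tamoxifen-inducible Cre driven by Pax7, so recombination was limited to cells that express it, and the mutant also carried floxed Kmt5b alleles. Animals were C57BL/6 mice of 8 to 12 weeks and of both sexes, and MuSCs were purified with magnetic beads from limb and trunk muscle and grown in culture before the assay. There were 3 S9.6 libraries per genotype and 1 input library per genotype, which was not analysed here. A score is the spike-in-normalized signal summed over a peak, rounded to a whole number by the authors, so it grows with peak length and is no measure of expression.

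The summed score of all peaks was 3893768 to 4729631 in Ctrl and 4699599 to 4930261 in Kmt5b sKO libraries, and Ctrl replicate 2 was the library that overlapped the mutant range. The single peak over Kmt5b scored 412, 658 and 420 in Ctrl and 440, 449 and 484 in Kmt5b sKO, which does not check the deletion, since R-loop signal over a locus is not a readout of the lost exons. Of the marker genes of the labelled cells, 5 of 10 MuSC genes carried a peak, among them Pax7 with 9 peaks, against 1 of 6 fibroblast, 2 of 4 endothelial and 0 of 4 blood genes. A peak shows R-loop signal and not the level of a transcript, so the makeup of the cultures was not tested.

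To show the DNA behind the results, a window of 200 bases is printed for 6 peaks. The first 3 are peaks that rose in Kmt5b sKO MuSCs, the next 2 are the longest peaks of Kdm1a and Nsd2, which were not called on the spike-in scale, and the last is the peak that fell. Each window is the one nearest the peak centre that holds no repeat-masked base and no annotated exon, read from GRCm38 on the coding strand of the gene, 5′ to 3′. Distances in the names are from the transcription start site (TSS) to the peak centre. Capitals mark runs of 3 or more G, a base pattern that favours R-loops when it lies on the coding strand.
Kmt2c, 26.0 kb peak (chr5:25472573-25472772, minus strand): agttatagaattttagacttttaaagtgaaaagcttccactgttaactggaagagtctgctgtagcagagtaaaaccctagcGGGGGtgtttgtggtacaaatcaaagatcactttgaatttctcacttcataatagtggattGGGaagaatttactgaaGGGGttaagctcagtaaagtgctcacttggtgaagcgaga
Kdm4a, 11.6 kb peak (chr4:118167504-118167703, minus strand): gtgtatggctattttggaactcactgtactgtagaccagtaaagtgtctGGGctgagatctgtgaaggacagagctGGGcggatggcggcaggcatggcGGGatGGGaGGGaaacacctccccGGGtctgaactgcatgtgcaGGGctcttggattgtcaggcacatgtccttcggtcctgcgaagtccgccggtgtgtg
Kdm1a, 5.32 kb peak (chr4:136596860-136597059, minus strand): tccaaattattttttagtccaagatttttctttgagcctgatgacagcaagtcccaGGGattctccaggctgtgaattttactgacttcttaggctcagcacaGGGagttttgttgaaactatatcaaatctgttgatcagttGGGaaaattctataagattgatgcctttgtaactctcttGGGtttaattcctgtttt
Kdm1a, 45.4 kb peak (chr4:136556680-136556879, minus strand): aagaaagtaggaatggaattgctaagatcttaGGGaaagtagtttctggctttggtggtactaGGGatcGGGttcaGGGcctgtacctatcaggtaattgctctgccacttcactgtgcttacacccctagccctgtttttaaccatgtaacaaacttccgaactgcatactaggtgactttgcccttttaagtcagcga
Nsd2, 62.2 kb peak (chr5:33883832-33884031, plus strand): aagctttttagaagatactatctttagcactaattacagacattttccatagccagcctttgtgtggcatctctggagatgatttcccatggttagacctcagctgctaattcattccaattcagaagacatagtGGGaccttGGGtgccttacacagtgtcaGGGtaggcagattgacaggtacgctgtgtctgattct
Kdm1b, 39.3 kb peak (chr13:47082651-47082850, plus strand): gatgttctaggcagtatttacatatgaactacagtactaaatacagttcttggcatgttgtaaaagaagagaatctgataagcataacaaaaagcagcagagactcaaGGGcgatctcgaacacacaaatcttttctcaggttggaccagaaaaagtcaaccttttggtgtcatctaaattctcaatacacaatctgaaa

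The windows held 3, 7 and 4 G runs in the peaks that rose, 4 and 3 in the long peaks of Kdm1a and Nsd2, and 1 in the Kdm1b peak. Of 18306 windows chosen from gene-body peaks of other genes without regard to exons, 85.2% held a run, with a median of 2. The Ehmt2 peak that rose had no such window. Over whole peaks, the 37 peaks of the enzyme genes that rose had a median of 8.16 G runs per kb. The median over all 154 tested peaks of these genes was 9.36, and the Kdm1b peak held 7.22. The higher counts in the printed windows of risen peaks therefore do not carry over to risen peaks as a group. The letters are a description of these windows, and differences in G runs were not tested.

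Of the 157 peaks, 154 had a mean score over 30 and were tested with limma. The mean was taken over all 6 libraries, so a peak low in Ctrl could pass through its Kmt5b sKO scores. Risen peaks with a Ctrl mean under 30 lay in Smyd3, Kdm7a, Nsd1, Prdm2, Kmt2c, Kdm4c and Setd2, with Ctrl means down to 19.0. Without this filter 37 peaks of the enzyme genes rose as well. That fit keeps the peaks with low Ctrl means, so it does not show what a filter on Ctrl alone would leave. A peak was called at a Benjamini-Hochberg adjusted p under 0.1 over all 25815 tested autosomal peaks and a fold change over 1.5. In Kmt5b sKO MuSCs 37 peaks in 22 genes rose (24%), 1 peak fell and 116 were not called. Over all tested autosomal peaks 32.9% rose and 0.883% fell, and over gene-body peaks of other genes, with a centre inside the gene and over 1 kb from its TSS, 24.3% rose and 1.03% fell. The share of the enzyme genes was thus near that of gene-body peaks in general.

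The median log2 fold change of the 154 peaks was 0.29, against 0.35 over all tested peaks and 0.26 over other gene-body peaks, and it turned to −0.17 with libraries centred on their median peak and to −0.08 with quantile normalization. Those scalings moved the median of all tested peaks to −0.11 and −0.01. With the spike-in scale of the authors 97.4% of the called peaks had risen. The share was 76.7% with equal library totals, 25% with median centring, 23.8% with quantile normalization and 57.1% with centring on peaks of like length. Over all tested peaks 8484 rose and 228 fell on the spike-in scale, and 5556 and 807 with equal totals. The counts were 2647 and 3073 with median centring, 2071 and 1988 with quantile normalization, and 2354 and 962 with centring by length. Every direction given here for these genes is therefore relative to the spike-in.

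In 58 of the 154 peaks (37.7%) all 3 Kmt5b sKO libraries lay above all 3 Ctrl libraries, and in 7 (4.55%) all lay below. Over all tested peaks the shares were 41.5% and 3.81%. All 37 peaks that rose were separated in this way, as were 4505 of the 5018 gene-body peaks of other genes that rose. Calls and separation come from the same scores, so the one is no separate evidence for the other. Their log2 fold changes ran from 0.59 to 1.34. At the threshold, a Kmt2e peak with 0.59 was called and a Kdm5b peak with 0.57 was not.

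**Figure D1:**
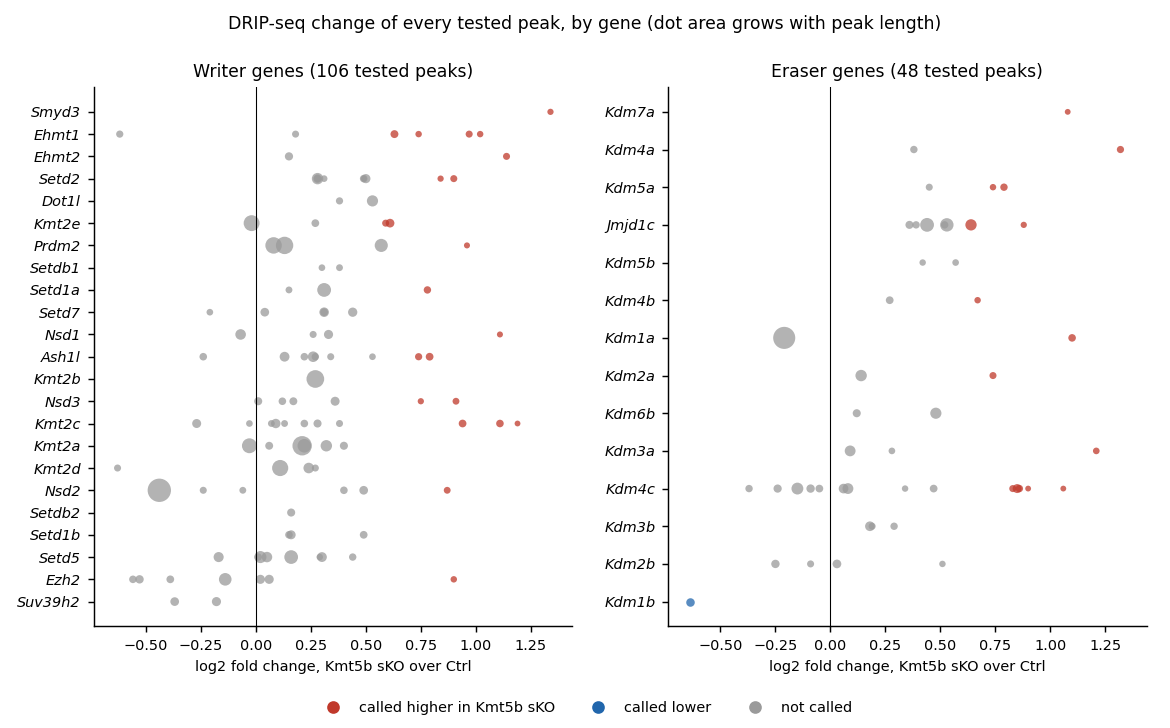
Log2 fold change of the score, Kmt5b sKO over Ctrl on the spike-in scale (x axis), of the 154 tested peaks by gene (y axis), writers left and erasers right; a dot is a peak, its area grows with peak length, red was called higher, blue called lower and grey not called. The 37 red dots lie from 0.59 to 1.34, and the 16 peaks longer than 10 kb lie from −0.44 to 0.57; medians of the family turn negative under median centring and quantile normalization.

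In 7 genes of H3K4 methylation writers 4 of 33 tested peaks rose (12.1%), and their median log2 fold change was 0.22. The median length of these peaks was 2800 bp, and other gene-body peaks of the same lengths rose in 21.1%, a difference that was not tested. Kmt2c, the catalytic subunit of an enhancer complex that places H3K4me1, had 11 peaks, of which 3 rose. Setd1a, a writer of H3K4me3 at promoters, had 3 peaks, of which 1 rose. The other H3K4 writers had no called peak, with 6 peaks in Kmt2a, 1 in Kmt2b, 4 in Kmt2d, 3 in Setd1b and 5 in Setd7. Of the relatives, Kmt2e, which has a SET domain without known strong activity, had 4 peaks with 2 risen, and Smyd3 had 1 peak, which rose.

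The Kmt2c peak 26.0 kb from the TSS (chr5:25471600-25473999, intronic) scored 58, 41 and 46 in Ctrl and 90, 127 and 99 in Kmt5b sKO. The groups did not overlap, and the score rose from 48.3 ± 8.74 to 105 ± 19.3 (SD, n = 3), a change of 1.11 ± 0.23 on the log2 scale (SE; limma adjusted p = 2.7e-05). A second Kmt2c peak 14.1 kb from the TSS rose as well, by 0.94 on the log2 scale. These peaks lay at 11.4% and 6.20% of the length of the gene. The 8 Kmt2c peaks that were not called ran from −0.27 to 0.38.

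The single Smyd3 peak (chr1:179468400-179469399, intronic, 1000 bp) scored 26, 17 and 29 in Ctrl and 52, 62 and 70 in Kmt5b sKO. It rose by 1.34 on the log2 scale (SE 0.34, limma adjusted p = 5.7e-04), the largest change among the 154 peaks. The peak covered 0.177% of a 566 kb gene. For Setd1a the peak 2.23 kb from the TSS (chr7:127777800-127779999) scored 46, 61 and 56 in Ctrl and 109, 120 and 62 in Kmt5b sKO (0.78), and the lowest mutant library lay only 1 unit above the highest Ctrl library. The Kmt2e peak 34.9 kb from the TSS (chr5:23467400-23471199) scored 89, 113 and 113 in Ctrl and 150, 182 and 150 in Kmt5b sKO, a log2 fold change of 0.61, and was not called without Ctrl replicate 1 (0.50) or without Kmt5b sKO replicate 2 (0.52).

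Signal of the MLL genes Kmt2a, Kmt2b and Kmt2d lay mostly in long peaks, none of which was called. These genes span 77.9, 19.9 and 39.5 kb, against 227 kb for Kmt2c with its 3 risen peaks. In Kmt2a, the founder of the family, peaks covered 87.0% of the gene, and its highest peak (26800 bp, 14 exons) scored 1035, 1188 and 944 in Ctrl and 1092, 1363 and 1204 in Kmt5b sKO. These groups overlapped (log2 fold change 0.21, SE 0.13, limma adjusted p = 0.21). The highest Kmt2d peak (18000 bp) scored 751, 892 and 712 in Ctrl and 768, 912 and 864 in Kmt5b sKO, which overlapped too (0.11). The 22000 bp peak that spans Kmt2b scored 832 ± 54.7 in Ctrl and 1004 ± 44.1 in Kmt5b sKO, separated between genotypes but with a log2 fold change of 0.27. It lies for 6.20% of its length over Gm49396 and Igflr1.

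Among the H3K36 writers 8 of 34 tested peaks rose (23.5%) in 5 genes. Of their 33 gene-body peaks 24.2% rose, against 27.5% of other gene-body peaks of the same lengths, which was not tested. Setd2, which places H3K36me3 behind elongating RNA polymerase II, and Ash1l had 9 peaks each with 2 risen, Nsd3 had 6 with 2 risen, Nsd2 had 6 with 1 risen and Nsd1 had 4 with 1 risen. Setd5, a SET-domain relative, had 8 peaks and none was called. Every one of the 9 Setd2 peaks had a positive log2 fold change, from 0.28 to 0.90.

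The Setd2 peak 3.90 kb from the TSS (chr9:110535600-110537399, intronic) scored 63, 35 and 44 in Ctrl and 65, 101 and 99 in Kmt5b sKO. It rose from 47.3 ± 14.3 to 88.3 ± 20.2, a change of 0.90 ± 0.24 on the log2 scale (SE; limma adjusted p = 0.0013), although the lowest mutant and the highest Ctrl library differed by 2 units. When each peak's variance was estimated alone, this peak and those named in Ash1l, Nsd2, Nsd3, Setd1a and Prdm2 were not called. The Ash1l peak 1.08 kb from the TSS (chr3:88950400-88952999) overlapped the gene Dap3 on the other strand, so its reads may belong to either gene, and scored 61, 68 and 67 in Ctrl and 115, 150 and 84 in Kmt5b sKO, a log2 fold change of 0.79. It was not called without Kmt5b sKO replicate 2 (0.58). The Nsd3 peak 65.4 kb from the TSS (chr8:25666200-25667799) scored 32, 46 and 37 in Ctrl and 68, 54 and 102 in Kmt5b sKO (0.91), and the Nsd1 peak (chr13:55294200-55294999, 800 bp) scored 16, 19 and 22 in Ctrl and 43, 29 and 58 in Kmt5b sKO (1.11). Without Kmt5b sKO replicate 1 or replicate 3 the mean score of the Nsd1 peak fell under the minimum of 30, and it was not tested there.

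Nsd2, a writer of H3K36me2, held a risen and a low peak. The peak 6.88 kb from the TSS (chr5:33826800-33828399, intronic) scored 45, 52 and 32 in Ctrl and 81, 100 and 58 in Kmt5b sKO, a rise of 0.87 on the log2 scale (SE 0.25, limma adjusted p = 0.0033). The 39800 bp peak over the 3′ part of the gene (chr5:33863000-33902799), the longest of all 157, scored 1771, 2265 and 1683 in Ctrl and 1316, 1383 and 1471 in Kmt5b sKO. All mutant libraries lay below all Ctrl libraries, and the log2 fold change was −0.44 ± 0.13 (SE; limma adjusted p = 0.0037), short of the 1.5-fold limit. It was called lower with equal library totals (−0.65) and with median centring (−0.90). This peak also covers part of Nelfa (12.3% of its length). The highest Setd5 peak (12400 bp) scored 344, 424 and 383 in Ctrl and 467, 409 and 405 in Kmt5b sKO, which overlapped.

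Among the H3K9 writers 6 of 17 tested peaks rose (35.3%), 4 of them in Ehmt1, which had 6 peaks. Other gene-body peaks of the same lengths rose in 27.5%, a difference that was not tested. Ehmt1 and Ehmt2 encode the partner enzymes GLP and G9a, which place H3K9me1 and H3K9me2, and Ehmt2 had 2 peaks with 1 risen. Prdm2 had 4 peaks with 1 risen. Setdb1, which places H3K9me3 with TRIM28, had 2 peaks, Setdb2 had 1 and Suv39h2 had 2, and none was called.

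The Ehmt2 peak 1.83 kb from the TSS (chr17:34899400-34901199, over 2 exons) scored 52, 32 and 34 in Ctrl and 91, 78 and 89 in Kmt5b sKO. It rose from 39.3 ± 11.0 to 86.0 ± 7, a change of 1.14 ± 0.25 on the log2 scale (SE; limma adjusted p = 9.8e-05). The Ehmt1 peak 24.7 kb from the TSS (chr2:24894000-24895799, intronic) scored 55, 48 and 35 in Ctrl and 89, 88 and 91 in Kmt5b sKO, a change of 0.97 ± 0.24 on the log2 scale (SE; limma adjusted p = 5.1e-04). Peaks 12, 32.0 and 99.6 kb from the TSS rose by 0.74, 1.02 and 0.63, whereas the last Ehmt1 peak, 117 kb from the TSS, scored 53, 54 and 47 in Ctrl and 22, 43 and 38 in Kmt5b sKO (log2 fold change −0.62, limma adjusted p = 0.11) and was not called.

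The Prdm2 peak that rose (chr4:143185000-143185799, 800 bp) scored 19, 32 and 31 in Ctrl and 41, 78 and 46 in Kmt5b sKO (log2 fold change 0.96), and was not called without Ctrl replicate 1 (0.73) or without Kmt5b sKO replicate 2 (0.68). The highest Prdm2 peak (18800 bp) scored 1110, 1203 and 1007 in Ctrl and 1123, 1208 and 1173 in Kmt5b sKO, with full overlap. Both Suv39h2 peaks had negative values, −0.18 and −0.37, and the second lies for 77.1% of its length over Dclre1c.

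Ezh2, the catalytic subunit of Polycomb repressive complex 2 (PRC2) that places H3K27me3, had 8 peaks, of which 7 were tested and 1 rose. The peak 8.54 kb from the TSS (chr6:47586200-47587399, intronic) scored 35, 34 and 27 in Ctrl and 72, 51 and 59 in Kmt5b sKO (log2 fold change 0.90, SE 0.30, limma adjusted p = 0.011). Of the other 6 tested peaks 4 had negative values, down to −0.56 at the peak 31.5 kb from the TSS, which scored 67, 61 and 51 in Ctrl and 30, 45 and 47 in Kmt5b sKO without passing the test. The Ezh2 peak 0.841 kb from the TSS was the only one of the 157 within 1 kb of a start site. It scored 17, 40 and 17 in Ctrl and 45, 21 and 33 in Kmt5b sKO, too low to be tested. Dot1l, the H3K79 writer, had 2 peaks and none was called, although its 7600 bp peak was separated with 284, 321 and 245 in Ctrl and 340, 476 and 417 in Kmt5b sKO (0.53). That Dot1l peak holds the gene end and lies for 27.6% of its length over Plekhj1 and Sf3a2.

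In the eraser genes 15 of 48 tested peaks rose (31.2%) and 1 fell, with a median log2 fold change of 0.41, against 22 of 106 (20.8%), 0 and 0.27 in the writer genes. The difference between the roles was not tested. Kdm1a had 2 peaks with 1 risen, Kdm1b 1 peak, which fell, Kdm2a 2 with 1 risen and Kdm2b 4 with none. Kdm3a had 3 peaks with 1 risen, Kdm3b 3 with none and Jmjd1c 7 with 2. Kdm4a had 2 peaks with 1 risen, Kdm4b 3 (2 tested) with 1 and Kdm4c 14 with 5. Kdm5a had 3 peaks with 2 risen, Kdm5b 3 (2 tested) with none, Kdm6b 2 with none and Kdm7a 1, which rose.

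Kdm1a and Kdm1b remove methyl groups from H3K4. The Kdm1a peak 5.32 kb from the TSS (chr4:136596200-136598599, intronic) scored 47, 37 and 48 in Ctrl and 133, 69 and 93 in Kmt5b sKO. It rose from 44.0 ± 6.08 to 98.3 ± 32.3, a change of 1.10 ± 0.24 on the log2 scale (SE; limma adjusted p = 6.5e-05). The other Kdm1a peak, 35400 bp long and over 16 exons, scored 1765, 2133 and 1672 in Ctrl and 1647, 1598 and 1536 in Kmt5b sKO. There all mutant libraries lay below Ctrl, with a change of −0.21 ± 0.13 on the log2 scale (SE; limma adjusted p = 0.19; called lower at −0.67 with median centring), and 42.9% of its length lies over Luzp1 on the other strand.

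The Kdm1b peak near the 3′ end of the gene (chr13:47081000-47084599, 47.9% exonic) was the only one that fell. It scored 114, 90 and 82 in Ctrl and 48, 79 and 58 in Kmt5b sKO, from 95.3 ± 16.7 to 61.7 ± 15.8, a change of −0.64 ± 0.22 on the log2 scale (SE; limma adjusted p = 0.015). The groups were 3 units apart at their closest. The peak was not called without Ctrl replicate 1 (−0.50) or without Kmt5b sKO replicate 1 (−0.47), nor with log2(score + 8) (−0.58) or when each peak's variance was estimated alone, and its log2 fold change was negative under all 4 other scalings.

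The KDM4 demethylases act on H3K9 and H3K36, and their genes held 7 risen peaks of 18 tested (38.9%). Other gene-body peaks of the same lengths rose in 26.7%, a difference that was not tested. The Kdm4a peak 11.6 kb from the TSS (chr4:118167400-118169399, over 1 exon) scored 23, 39 and 36 in Ctrl and 115, 59 and 79 in Kmt5b sKO. It rose from 32.7 ± 8.50 to 84.3 ± 28.4, a change of 1.32 ± 0.27 on the log2 scale (SE; limma adjusted p = 2.5e-05). The Kdm4c peak 48.6 kb from the TSS (chr4:74289000-74293199, intronic) scored 92, 99 and 98 in Ctrl and 161, 159 and 208 in Kmt5b sKO, a change of 0.85 ± 0.18 on the log2 scale (SE; limma adjusted p = 6.8e-05). The 5 risen Kdm4c peaks lay in introns between 32.6 and 142 kb from the TSS, with peaks that were not called between them, and the highest Kdm4c peak (8800 bp) scored 291, 405 and 312 in Ctrl and 301, 338 and 265 in Kmt5b sKO, which overlapped, though it was called lower with median centring (−0.61). The Kdm4b peak that rose (chr17:56386000-56387199) scored 37, 34 and 27 in Ctrl and 57, 47 and 53 in Kmt5b sKO (0.67), and was not called without Ctrl replicate 3 (0.54) or without Kmt5b sKO replicate 1 (0.61) or 3 (0.66).

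Kdm3a removes methyl groups from H3K9, and Jmjd1c is its relative. The Kdm3a peak 26.9 kb from the TSS (chr6:71605400-71606799, intronic) scored 37, 32 and 30 in Ctrl and 96, 82 and 59 in Kmt5b sKO, a change of 1.21 ± 0.27 on the log2 scale (SE; limma adjusted p = 1.2e-04). The Jmjd1c peak 109 kb from the TSS (chr10:67201200-67208999, intronic), at 7800 bp the longest of those that rose, scored 247, 312 and 265 in Ctrl and 438, 402 and 443 in Kmt5b sKO. Its score rose from 275 ± 33.6 to 428 ± 22.4, a change of 0.64 ± 0.15 on the log2 scale (SE; limma adjusted p = 2.1e-04), and the peak was not called without Ctrl replicate 1 (0.57). All 7 Jmjd1c peaks had positive values, from 0.36 to 0.88, including its highest peak (12600 bp), with 395, 435 and 365 in Ctrl and 513, 555 and 550 in Kmt5b sKO (0.44).

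Kdm5a, an H3K4 demethylase, rose at the peak 14.4 kb from the TSS (chr6:120377400-120379599, intronic), with 75, 70 and 59 in Ctrl and 127, 98 and 132 in Kmt5b sKO (log2 fold change 0.79). Kdm7a, which acts on H3K9 and H3K27, had 23, 26 and 24 in Ctrl and 61, 44 and 54 in Kmt5b sKO (1.08) at its single 600 bp peak (chr6:39194800-39195399). Kdm2a, an H3K36 demethylase, had 49, 39 and 41 in Ctrl and 79, 66 and 72 in Kmt5b sKO (0.74) at its peak 45.0 kb from the TSS (chr19:4352400-4354199). None of these 3 peaks overlapped between genotypes. Kdm6b, the H3K27 demethylase, had a separated peak of 7600 bp with 246, 297 and 242 in Ctrl and 338, 398 and 356 in Kmt5b sKO whose log2 fold change of 0.48 was below the limit.

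**Figure D2:**
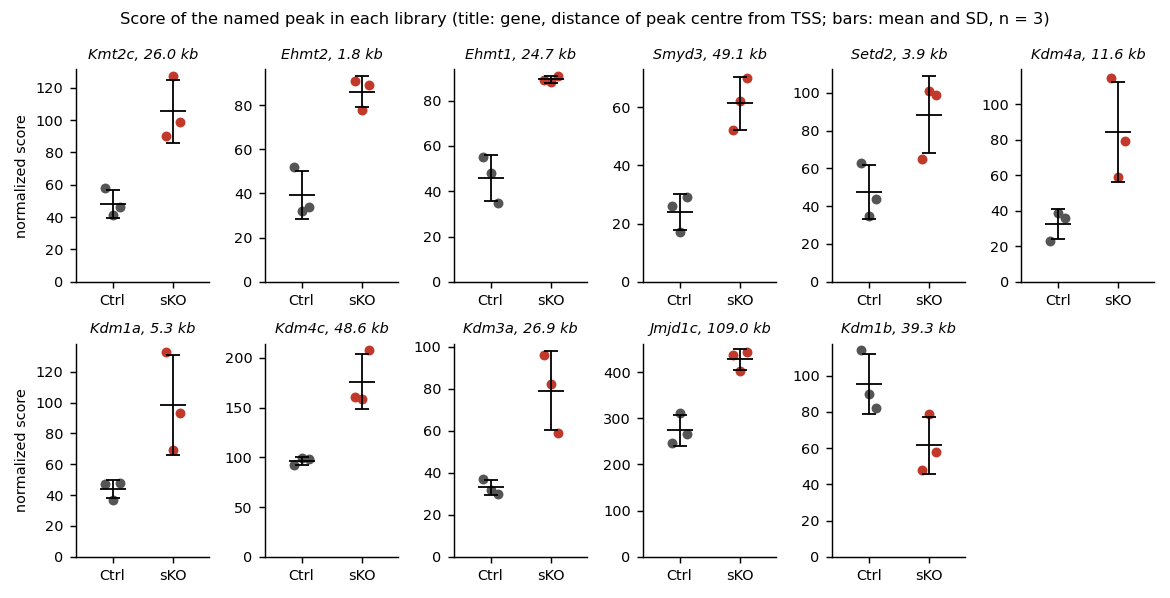
Normalized score (y axis, from 0) in each of the 3 Ctrl and 3 Kmt5b sKO libraries for the called peak with the smallest adjusted p in 5 writer and 5 eraser genes and for the Kdm1b peak; dots are libraries, bars the mean and SD, and titles give the gene and the distance of the peak centre from the TSS. In the first 10 panels the mutant libraries lie above Ctrl, closest in Setd2 (63 against 65), and in Kdm1b they lie below.

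Peak length went with the change. In the shortest class, 200 to 1600 bp, 18 of 35 enzyme gene peaks rose (51.4%), against 51.9% of other gene-body peaks of that length. From 1800 to 2200 bp 11 of 30 rose (36.7%, others 29.9%), from 2400 to 3400 bp 5 of 33 (15.2%, others 19.3%), from 3600 to 6600 bp 2 of 26 (7.69%, others 9.67%) and above that 1 of 25 (4%, others 3.56%). With the shares of other genes at the same lengths, 36.9 of the 149 tested gene-body peaks would be called higher, and 37 were. For writers the share was 21.2% against 23.9% at like lengths, and for erasers 33.3% against 26.7%.

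The 16 peaks longer than 10 kb lay in 11 genes and held 48.8% of the score of all tested peaks of these genes. None was called, and their log2 fold changes ran from −0.44 in Nsd2 to 0.57 in Prdm2. Across the 154 peaks the Spearman correlation of the log2 fold change with length was −0.45, against −0.49 over 20644 other gene-body peaks. Peaks of 1 gene share libraries and neighbouring sequence, so these correlations are descriptions.

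**Figure D3:**
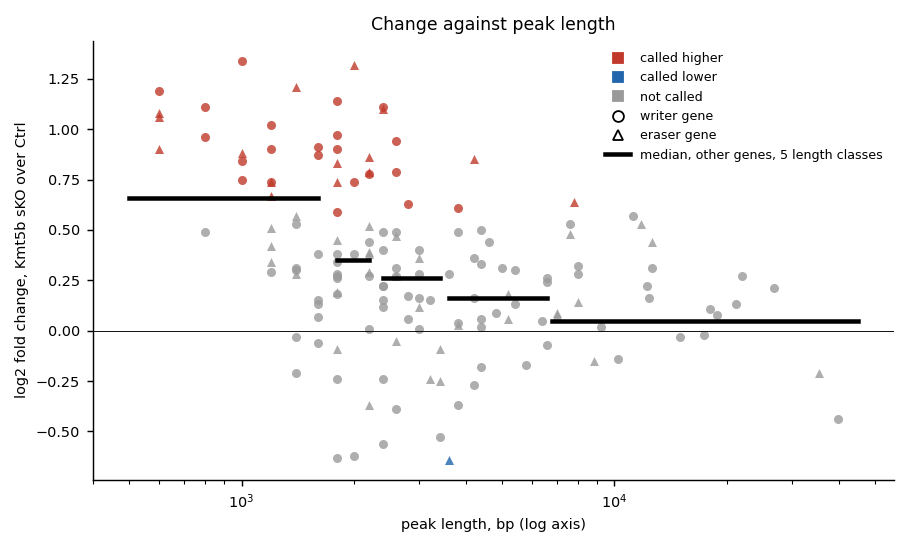
Log2 fold change, Kmt5b sKO over Ctrl on the spike-in scale (y axis), against peak length in bp (log x axis) for the 154 tested peaks; circles are writer and triangles eraser genes, red was called higher, blue lower and grey not called, and black bars are the median of other genes' gene-body peaks in 5 length classes, cut at the plotted range. The medians step down from 0.66 to 0.05 and the enzyme gene peaks scatter around them.

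With each library centred on gene-body peaks of like length, 8 of the 154 peaks were higher (5.19%) and 6 lower (3.90%), against 6.08% and 4.30% of other gene-body peaks. The 8 were 2 Kmt2c peaks and the peaks named above in Ehmt1, Ehmt2, Kdm1a, Kdm3a, Kdm4a and Kdm4c. The 6 that were lower were the Kdm1b peak, 3 intronic Ezh2 peaks 28.0, 31.5 and 35.2 kb from the TSS (−0.73, −0.86 and −0.69), the last Ehmt1 peak (−0.98) and a Kmt2d peak 34.3 kb from the TSS (−0.99). Apart from Kdm1b, these had not been called on the spike-in scale.

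Position in the gene also went with the change. In the 5′-most of 3 equal parts of the gene 21 of 42 gene-body peaks rose (50.0%), against 30.5% of other gene-body peaks there. In the middle part 7 of 49 rose (14.3%, others 24.4%) and in the 3′-most part 9 of 58 (15.5%, others 19.1%). In 22 genes with at least 3 tested peaks, the peak nearest the TSS lay above the median of the rest in 18 (81.8%), and it did so in the same number after the median of its length class was taken off. In 2235 other genes it was 64.2% and 61.7%. The 4 exceptions were Jmjd1c, Kdm3a, Kdm3b and Nsd1. These shares were not tested.

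**Figure D4:**
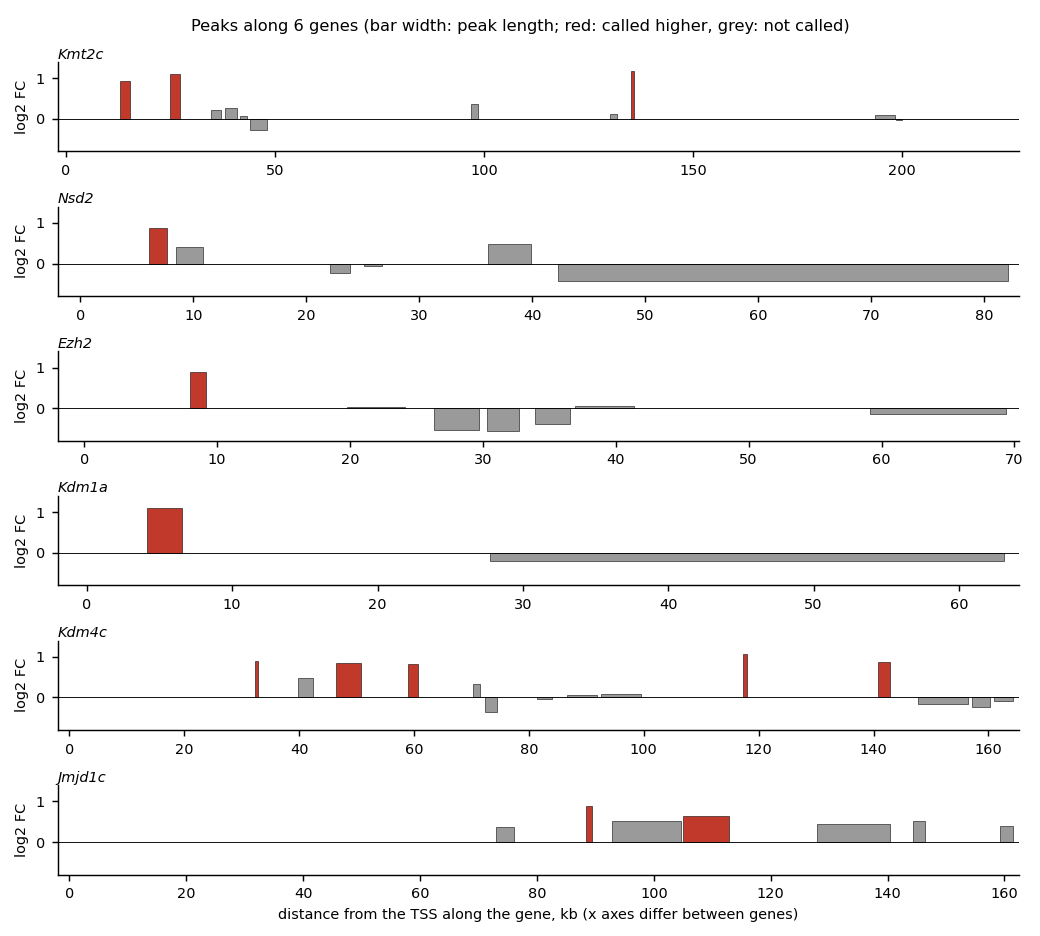
Log2 fold change, Kmt5b sKO over Ctrl on the spike-in scale (y axis), of the tested peaks of 6 genes against distance from the TSS in kb (x axis, a different range for each gene); bar width is peak length, red bars were called higher and grey bars not called. In Kmt2c, Nsd2, Ezh2 and Kdm1a the tested peak nearest the TSS is red and lies within 14.1 kb of it, and the long 3′ peaks of Nsd2 and Kdm1a lie below 0.

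Peaks that lay wholly in introns rose in 26 of 59 cases (44.1%) and peaks over an exon in 11 of 95 (11.6%). Among gene-body peaks of other genes the shares were 33.3% and 14.4%. Of the 95 peaks over an exon 90 were gene-body peaks. None of the 15 peaks over a gene end was called, and 10 of them were gene-body peaks. Of gene-body peaks over a gene end in other genes 8.46% rose. The share of repeat-masked bases went with the change too (Spearman 0.46, other genes 0.41), and GC content did so weakly (−0.12). Length, exon content and repeats go together within these genes, and their separate parts were not tested.

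Summed over all peaks of a gene, the score gives 1 value per gene that the long peaks dominate. Of 37 genes 5 rose, Smyd3 (1.34), Kdm7a (1.08), Kdm4a (0.77), Kdm5a (0.69) and Ehmt2 (0.60), and Kdm1b fell (−0.64). Over 7299 genes 25.6% rose and 0.274% fell. The median log2 fold change was 0.27 against 0.29 over all genes. Smyd3, Kdm7a and Kdm1b have a single peak, so their sums repeat it. The Nsd2 sum was 2211 ± 340.3 in Ctrl and 1790 ± 104 in Kmt5b sKO, with all mutant libraries lower (−0.30, SE 0.12, limma adjusted p = 0.044), below the fold limit.

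**Figure D5:**
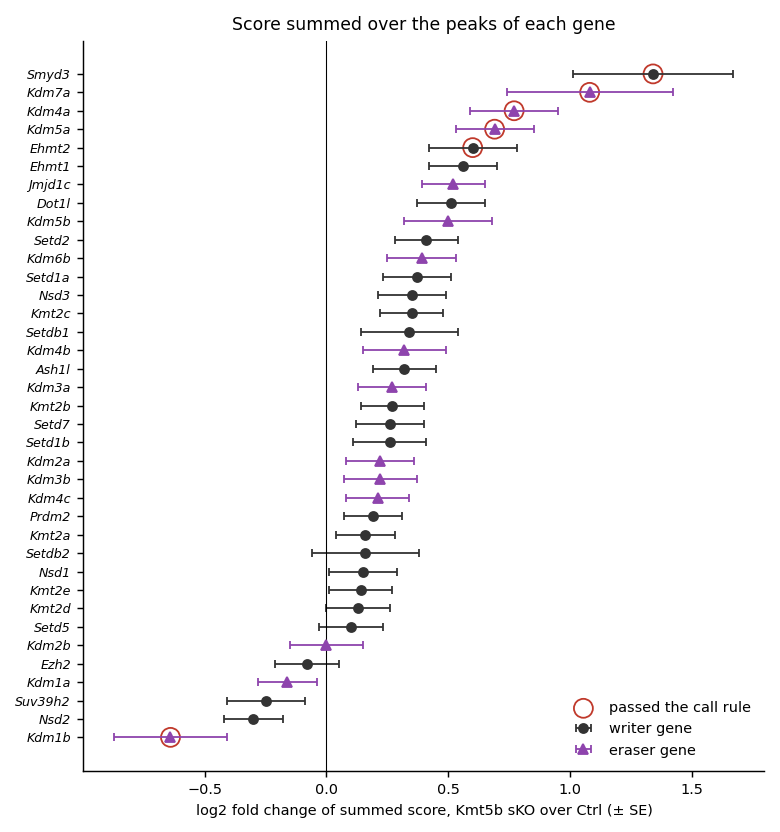
Log2 fold change of the score summed over the peaks of each gene, Kmt5b sKO over Ctrl on the spike-in scale (x axis, bars are the SE of the limma fit), for 37 genes (y axis), with circles for writers, triangles for erasers and red rings for the 6 genes that passed the call rule. The values run from −0.64 in Kdm1b to 1.34 in Smyd3, with most genes between 0 and 0.6.

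The summed score of all these peaks was 24449 ± 2714 in Ctrl and 27573 ± 875 in Kmt5b sKO, and Ctrl replicate 2 (27575) overlapped the mutant libraries. As a share of the score of all autosomal peaks it was 0.593% ± 0.00379 in Ctrl and 0.581% ± 0.00551 in Kmt5b sKO, with no overlap. The eraser genes were separated (6732 ± 752 and 7800 ± 73.2) and the writer genes were not (17717 ± 1962 and 19773 ± 887).

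Genes of the protein partners of these enzymes gave 25 risen peaks of 116 tested (21.6%) in 17 of 37 genes with a peak, and none fell. Of all tested peaks 32.9% were called higher, and of other gene-body peaks 24.3%. Gene-body peaks of the partners rose in 21.9%, against 25.1% of other gene-body peaks of the same lengths. Partners of PRC2 had 8 of 21 (38.1%, others of the same lengths 34.1%) with a median length of 1800 bp. The listed partners in H3K4 complexes had 0 of 16 (others 18.9%) with a median of 3100 bp. The difference between these lists was not tested. The smallest adjusted p were in Aebp2, a PRC2 subunit (59, 42 and 40 in Ctrl, 115, 141 and 140 in Kmt5b sKO, log2 fold change 1.49, limma adjusted p = 1.8e-09), in Mllt1, a reader in elongation complexes (1.10), and in Atf7ip, a partner of SETDB1 (0.69).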

How the data were processed

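DRIP-seq was measured in 3 Ctrl and 3 Kmt5b sKO S9.6 libraries, and groups followed the sample labels. The authors aligned reads to mm10 (STAR 2.7.3a), removed duplicates (Picard 2.21.7), called peaks against input (named SICER or epic2, 0.0.41) and unified them. The deposited values are union-peak scores, normalized to Drosophila spike-in reads by the authors and rounded, so they were not treated as counts, and the count model of the study was not run. Depth in reads is not given by the scores. Each peak carries the gene the authors assigned. Coordinates are those of the table, whose starts may lie 1 base before a browser's first base.

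Autosomal peaks with a mean score over 30 were tested with limma 3.58.1 (R 4.3.3; eBayes with trend, two-sided) on log2(score + 1), a scale that understates the change of low peaks. The prior degrees of freedom were infinite, so variances came from the trend. The fit was tested on simulated data with independent noise and few changed peaks, in both directions. That does not check calls under the wide shift towards higher scores seen here. Exons and neighbouring genes came from GENCODE vM21, sequence from GRCm38. The scores are not split by strand, so overlapping genes cannot be told apart. Libraries are called biological replicates by the study.

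Members, gene lists and comparisons were chosen with earlier results of these data known. Every listed gene was named. Peaks were given by library for the smallest adjusted p per gene with a call, all lower calls, the highest peak of the 8 genes with the highest sums and peaks within 1 kb of a TSS. Alternatives covered pseudocount, level filter, scaling, variance model, replicate block, fold limit, chromosomes and each library left out. Members without another overlapping gene were counted after seeing the data. Python 3.11.15, numpy 2.4.6, pandas 2.3.3 and matplotlib 3.10.9 were used.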

Additional observations from a re-analysis of the deposited data

How the results depend on the processing

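On the main scale 37 peaks rose and 1 fell, with 22 risen in writers, 15 in erasers, a median of 0.29, and 5 genes higher and 1 lower. Equal library totals gave 23 higher, 7 lower, 13 in writers, a median of 0.09 and 2 genes higher. Median centring gave 6 higher, 18 lower, 3 in writers, 3 in erasers, a median of −0.17 and 2 genes in each direction. Quantile normalization gave 5 higher, 16 lower, 2 in writers, 3 in erasers, a median of −0.08, and 0 genes higher and 2 lower. Centring on length deciles gave 8 higher, 6 lower, 4 in writers, 4 in erasers, a median of 0.01 and 0 genes higher. These scalings moved the median of all tested peaks from 0.35 to 0.15, −0.11, −0.01 and 0.05. In the same order they called 21.6%, 10.3%, 8.02% and 9.12% of all tested peaks higher. Of the peaks of these genes they called 14.9%, 3.9%, 3.25% and 5.19% higher. On the main scale the shares were 32.9% and 24%. All tested peaks include peaks outside gene bodies. Gene-body peaks of other genes rose in 24.3% on the main scale and in 6.08% with centring by length. A mean score over 100 left 3 higher, 0 lower, 1 in writers, 2 in erasers, a median of 0.16, and 3 genes higher and 0 lower. There 5.56% of the peaks of these genes were higher, against 12.3% of all tested peaks. A fold over 2 left 11 higher, 0 lower, 6 in writers, 5 in erasers, and 2 genes higher and 0 lower. No fold limit gave 52 peaks higher and 3 lower, and 16 genes higher and 2 lower. The shares of all tested peaks and genes at these fold limits were not computed, so these counts have no background. With log2(score + 8) 0 peaks and 0 genes were lower. Without a variance trend 2 peaks were lower. With the variance of each peak alone 27 peaks were higher (17.5%, all tested peaks 21.1%), 13 of them in writers, and 0 peaks and 0 genes were lower. Taking 1 peak per gene, the one with the highest mean score, left 4 higher with a median of 0.18. The score grows with length, so this choice favours long peaks, which seldom rose. It was not made for other genes. The cause of these shifts was not tested.

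Leaving out 1 library gave 31 to 45 peaks higher, 0 to 4 lower, 18 to 28 in writers, 13 to 17 in erasers, medians of 0.24 to 0.38, 4 to 7 genes higher and 0 to 1 lower. In these fits 20.1% to 29.4% of the peaks of these genes were higher, against 27.8% to 35.2% of all tested peaks. Of the 22 genes, 16 kept their named risen peak in all 6 of these fits. The Setd5 peak 25.6 kb from the TSS turned to −0.05 with equal totals and −0.30 with median centring, the highest Kmt2d peak to −0.09 and −0.34, and the highest Prdm2 peak to −0.12 and −0.38. Of 23 named peaks with a call, 6 lost their call with equal totals, 16 with median centring, 17 with quantile normalization and 15 with centring by length. Among the 8 without one, the long Nsd2 peak was called lower with equal totals (−0.65) and median centring (−0.90), and the long Kdm1a (−0.67) and highest Kdm4c peaks (−0.61) with median centring. With median centring the highest Jmjd1c peak was −0.02 and the highest Kmt2a peak −0.25. With the replicate number as a block 37 peaks were higher and 1 lower, as without it. The numbers do not pair the libraries, since same-numbered libraries had deviations that correlated at −0.009, 0.011 and −0.027. Scores hold no read depth, and single scores therefore carry no interval.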
